A study of Mus musculus with 66 samples.

Results

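The genes described here are the Notch ligands Dll1, Dll3, Dll4 and Jag1, the receptors Notch1 and Notch2, and the transcription factor genes Hes1, Hes5, Hes6 and Hey1. They were taken by symbol from the deposited table of normalised read counts, where all 10 were present among 24410 genes. A normalised read count is a read count divided by a scaling factor of its library, and it is the unit of every level below unless a level per kb is named. None of the 10 was at 0 in any of the 66 libraries. All 10 passed the filter on low values, which kept 15714 genes with at least 10 normalised counts in at least 2 libraries.

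Polyadenylated RNA was sequenced from progenitors of the ventral spinal cord that had been differentiated from mouse embryonic stem cells, fixed in glyoxal, stained inside the cell and sorted. The 29 MUT libraries form 12 groups and the 37 WT libraries form 14 groups. Every group, MUT and WT, had the same culture: 10 ng/ml bFGF, then CHIR99021 (5 µM), which activates Wnt signalling, then 100 nM retinoic acid together with 10 nM SAG, an agonist of Smoothened. Retinoic acid ended at day 5 and SAG stayed. The labels call the days D5, D7, D9 and D11, and the progenitor domains p1 (the design text speaks of p0-p1), p2 and pM (pMN, the motor neuron progenitors). The last label is a gate for NFIA, a transcription factor of late, gliogenic progenitors, written NFIAn or NFIAp with the final letter not spelled out. MUT libraries were all NFIAn. WT libraries were NFIAn at D5, D7 and D9 and NFIAp at D11, with both gates taken at D9 in p2 and pM. Groups held 3 libraries (15 groups), 2 (10 groups) or 1 (MUT D9 p2, which was assumed to vary like the others). The labels name neither the altered gene of MUT nor a clone, nor do they tell whether replicates were cultured separately. The p-values hence describe the spread among libraries, which may be technical.

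Recovered reads ran from 8.738 to 30.83 M per library, and all but the shallowest library held at least 20.29 M. In 18 libraries the normalised counts of all genes summed to between 26.6 and 40.2 M, and in the remaining 48 libraries to between 17.8 and 25.5 M. The 18 are replicate 3 at D7 and replicates 2 and 3 at D9. Dll1, Dll4, Jag1, Notch1 and Notch2 each had their lowest D7 value in replicate 3 in all 6 D7 groups, so results that use D7 and D9 are also given without those 18 libraries where that ended a call. Libraries sorted as p1 and pM carried the highest levels of their markers. The p1 list summed to 4888 to 16387 in p1 and to at most 3237 elsewhere (Dbx1 at 3032 to 13683 against at most 2074), and the pM list summed to 2895 to 12503 in pM and to at most 1056 elsewhere (Olig2 at 658 to 4544 against at most 173). The p2 list did not set p2 apart. It summed to 237 to 4473 in p2 (median 1572), 463 to 7112 in pM (median 3124) and 41.6 to 458 in p1. Of its genes, Vsx1 was at 40.1 to 202 in p2 and at most 43.3 elsewhere at D5, and at 297 to 2470.2 in p2 and at most 105 elsewhere from D7 to D11. Sox2, a gene of neural progenitors, was at 688 to 3636 in all 66 libraries.

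Notch signalling passes between touching cells. A Delta or Jagged ligand on one cell binds a Notch receptor on its neighbour, the receptor is cleaved, and its intracellular part joins the DNA-binding protein RBPJ to switch on genes such as Hes1, Hes5 and Hey1, whose products repress proneural genes and keep the cell a progenitor. In the spinal cord, differentiating cells carry the ligands, the domains of the ventral neural tube use different ones, and Hes6 differs from its relatives in being a proneural target that favours differentiation.

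The sequences upstream of Hes5 and Hes6 are shown because these were the members with the highest level per kb and because they stand for the Notch-driven and the proneural-driven branches of the family. Both come from RefSeq on GRCm38.p6 and cover the 250 bases before the start. The Hes5 window is chr4:154960673-154960922 (plus strand), with matches to the RBPJ motif GTGGGAA on either strand in capitals. The Hes6 window is chr1:91414039-91414288 (minus strand), with the E box CAGCTG, a motif of proneural factors, in capitals.
Hes5: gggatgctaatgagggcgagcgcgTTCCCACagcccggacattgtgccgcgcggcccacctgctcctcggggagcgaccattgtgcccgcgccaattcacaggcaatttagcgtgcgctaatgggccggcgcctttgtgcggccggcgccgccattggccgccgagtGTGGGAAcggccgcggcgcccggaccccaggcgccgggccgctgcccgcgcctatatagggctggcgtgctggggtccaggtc
Hes6: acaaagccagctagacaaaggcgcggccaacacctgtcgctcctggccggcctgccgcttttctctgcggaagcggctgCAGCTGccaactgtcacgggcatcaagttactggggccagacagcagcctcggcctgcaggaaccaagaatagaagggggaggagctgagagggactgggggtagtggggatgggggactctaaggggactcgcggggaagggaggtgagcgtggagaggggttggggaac
The Hes5 window held 2 matches, whose first bases lay 226 and 83 bases before the start, on opposite strands. There were 10 windows for 8 of the 10 members. Hes1 and Hey1, named above as genes that RBPJ switches on, had none and could not be searched. Among those 8, Hes5 alone had GTGGGAA, which occurs in 5.42% of all 32851 windows. CAGCTG occurs in 13% of all windows. It was in the Hes6 window 171 bases before the start, in a second Hes6 window, and in windows of Dll1, Dll3 and Jag1. The repressor E box CACGNG, in 23.5% of all windows, was in windows of Dll1, Dll4, Jag1, Notch2 and Hes6, and CATATG, in 3.46%, was in none of the 10. Of the Dll3 window 250 bases lay within the gene's own GENCODE exons, as did 153 bases of 1 Dll1 window and 124 of the Jag1 window. These are letter matches only.

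Levels between genes were compared per kb of exon (normalised counts divided by the length of the merged GENCODE exons). The median over 66 libraries was highest for Hes5, at 10292 per kb, followed by Hes6 at 6003 per kb. Dll1 followed at 386, Hey1 at 231, Hes1 at 207 and Dll3 at 198 per kb, and the libraries of these 4 genes overlapped widely. Notch1 (112), Jag1 (103), Dll4 (41.3) and Notch2 (22.0 per kb) were lowest. Libraries of the same group agreed best for Hey1, whose within-group SD was 0.264 on the log2 scale, and for Hes6 (0.326) and Hes5 (0.385). They agreed least for Hes1 (0.755), Dll3 (0.872), Notch2 (0.938) and Dll4 (1.16). Dll4 reached 10 normalised counts in 60 of the 66 libraries, and its lowest library held 2 reads.

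From D5 to D11 the change that ran through all domains was a rise of Hes6 and Hey1, which passed the test in p1, p2 and pM of both MUT and WT. The p1 domain had the most calls: 9 of the 10 members in MUT p1 and 5 of 10 in WT p1 differed between D11 and D5, among them the ligands Dll3 and Jag1 and the receptor Notch1. Fewer cells of a type and less RNA per cell cannot be told apart in these bulk libraries. In WT the D11 libraries are NFIAp and the D5 libraries NFIAn, so day and gate cannot be told apart in the WT changes from D5 to D11. The test was limma on log2(normalised count + 1) with 1 mean per group over all 66 libraries, and a member is counted where its p, adjusted by the Benjamini-Hochberg method over the 15714 genes, was under 0.05. In MUT p1 8 members were higher and Hes1 was lower (23.5% of all genes were called). In MUT p2 Dll3, Hes6 and Hey1 were higher (25.9%), and in MUT pM Hes6 and Hey1 (22.8%). Averaged over the MUT domains 6 members were called, each of them higher (46.0% of all genes called, 24.1% higher). In WT p1 5 members were called, each higher (27.7% called, 14.0% higher). In WT p2 Dll3, Hes6 and Hey1 were higher (25.8% called, 14.2% higher), and in WT pM Hes6 and Hey1 (20.4% called, 10.7% higher). The counts in p2 and pM of both genotypes are near those background shares. The members' median log2 difference was 1.77 in WT p1, 0.51 in WT p2 and -0.50 in WT pM, beside 0, 0.04 and 0.01 for all genes tested.

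Step by step in WT, the called changes fell between D5 and D9. At D7 against D5, Dll3, Notch1 and Hes6 were higher and Notch2 and Hes1 were lower (5 of 10, against 19.6% of all genes). At D9 against D7, compared in NFIAn, Dll3, Hes6 and Hey1 were higher (3 of 10, against 14.4% called and 6.30% higher). These steps share the D7 libraries. With replicate number as a block within day, every call but that of Hes6 was lost at the first step, and that of Dll3 at the second. At D11 against D9, compared in NFIAp of p2 and pM, limma called 0 members (10.1% of all genes), 1 (Dll4) had an unadjusted p under 0.05, and edgeR and DESeq2 called 0 and 1.

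Several lists of other cells and states moved with the day as well. A list of neuronal genes summed to 13737 to 66678 in D7 to D11 libraries and to 2385 to 14921 in D5 libraries. The S phase list summed to 21545 to 98097 later and to 83540 to 129159 at D5. The list of proneural genes summed to 11644 to 70495 later, and at D5 to 2708 to 4297 in p1, 6993 to 13482 in p2 and 27432 to 33335 in pM. The astroglia list summed to 7407 to 186999 later and to 5867 to 14049 at D5, and at D11 to 21985 to 79096 in MUT and 71779 to 186999 in WT. The mural and mesenchyme list summed to 33.8 to 7727 later and to 146 to 851 at D5, and the neural crest list to 161 to 3451 later and to 140 to 499 at D5, so both reached higher later with ranges that overlap. Blood genes summed to at most 6, and of the presomitic mesoderm list Msgn1 was at 0 in all 66 libraries and Meox1 made up most of the sum (531 to 2043 at D5). The part of these cells and states in the members' changes was not tested.

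**Figure D1:**
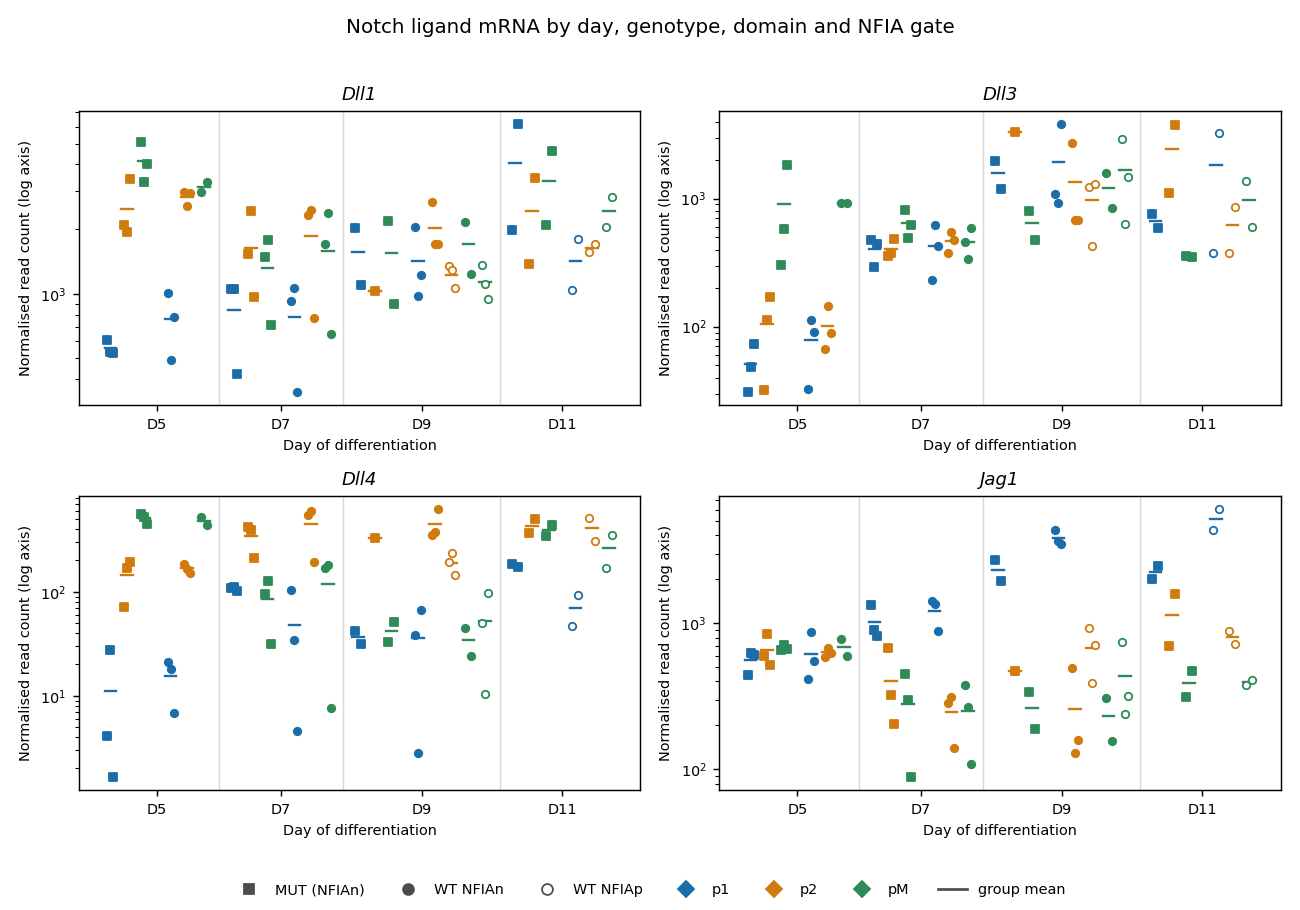
Normalised read counts (log axis) of the 4 ligand genes in each library against the day of differentiation, squares for MUT, filled circles for WT NFIAn, open circles for WT NFIAp, colours for the domains and bars for group means. Jag1 separates p1 from p2 and pM after D5, and Dll4 is low in p1 at D5.

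Dll3, a divergent ligand that acts inside the cell that makes it, started low and rose steeply in p1. In MUT p1 it was at 31.0, 48.2 and 73.4 at D5, 479, 294 and 444 at D7, 1964 and 1179.8 at D9, and 754 and 586 at D11. WT p1 libraries held 32.5, 113 and 91.0 at D5, 231, 619 and 423 at D7, 1096, 929 and 3807 at D9, and 374 and 3271 at D11. In both genotypes every p1 library of D7 to D11 lay above every D5 library, and the D11 libraries of WT p1 lay far apart. The log2 difference of D11 against D5 was 3.77 ± 0.74 (SE, limma, adjusted p = 1.18e-04) in MUT p1 and 3.97 ± 0.74 (SE, limma, adjusted p = 4.44e-05) in WT p1. The WT p1 value depended on single libraries: it was 5.54 without WT D11 p1 replicate 2 and 2.41 (limma, adjusted p = 0.0414) without replicate 3, and with only the compared groups in the fit its adjusted p was 0.0936.

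In p2, Dll3 was at 31.8, 113 and 171 at D5, 354, 377 and 487 at D7, 3318 at D9, and 1112 and 3794 at D11 in MUT, and at 66.7, 145 and 89.3 at D5, 377, 547 and 472 at D7, 2707, 686 and 677 at D9, and 375 and 859 at D11 in WT NFIAn to D9 and NFIAp at D11. The D11 libraries lay above the D5 libraries in both genotypes. The difference was 4.58 ± 0.74 (SE, limma, adjusted p = 4.98e-06) in MUT p2 and 2.56 ± 0.74 (SE, limma, adjusted p = 0.00790) in WT p2. The MUT p2 value was 5.46 without MUT D11 p2 replicate 2, 3.69 without MUT D11 p2 replicate 3 and 3.88 without MUT D5 p2 replicate 1. The WT p2 call ended without WT D11 p2 replicate 3 (1.97, adjusted p = 0.153, limma), and the value was 3.16 without replicate 2.

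In pM, Dll3 was already high at D5 and did not move in one direction. MUT pM held 301, 581 and 1820.0 at D5, 811, 489.8 and 624 at D7, 807 and 473 at D9, and 354 and 349 at D11, and WT pM held 920.1 and 930.4 at D5, 461, 335 and 588 at D7, 1587 and 838 at D9, and 1368 and 597 at D11. The D11 range overlapped the D5 range in both genotypes, with log2 differences of -0.96 ± 0.74 (SE, limma, adjusted p = 0.400) in MUT and -0.03 ± 0.81 (SE, limma, adjusted p = 1.00) in WT. Whether the MUT change differed among domains was tested directly, and it did for Dll3 (limma, adjusted p = 0.00138), Hes6 (1.82e-04), Dll1 (0.0298) and Hes5 (0.0338), which is 4 of 10 members against 1.04% of all genes. The Dll1 call ended without each of 7 libraries (MUT D11 p1 replicate 3, MUT D11 p2 replicate 2, MUT D11 pM replicate 2, MUT D5 p1 replicates 1, 2 and 3 and MUT D5 pM replicate 1), with an adjusted p of up to 0.438. The Hes5 call ended without each of 9 (MUT D11 p1 replicates 2 and 3, MUT D11 pM replicates 2 and 3, MUT D5 p1 replicates 1, 2 and 3 and MUT D5 pM replicates 1 and 3), with an adjusted p of up to 0.167.

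The WT steps of Dll3, averaged over domains, were 1.23 ± 0.40 for D7 against D5 (limma, adjusted p = 0.0229) and 1.53 ± 0.40 for D9 against D7 (adjusted p = 0.00630). Both calls ended with replicate number as a block within day (1.35, limma, adjusted p = 0.0644, and 1.43, 0.0615). The first ended without WT D5 p1 replicate 1 and WT D5 pM replicates 2 and 3 in turn (1.05 to 1.24, adjusted p up to 0.0623), and without the 18 libraries of high total (1.15, adjusted p = 0.0751).

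Dll1, the ligand of most spinal progenitor domains, had its lowest D5 levels in p1. At D5 it was at 607, 534 and 529 in MUT p1, at 2093, 1943 and 3428 in MUT p2 and at 5094, 3301 and 4014 in MUT pM. The WT values at D5 were 1003, 492 and 782 in p1, 2976, 2557 and 2946 in p2 and 2972 and 3328 in pM. In both genotypes p1 lay below p2 and pM without overlap at D5. By D11 the MUT libraries were at 1988 and 6143 in p1, 1369 and 3467 in p2 and 2081 and 4634 in pM. The WT libraries at D11 were at 1035 and 1804 in p1, 1564 and 1695 in p2 and 2050.3 and 2819 in pM. At D11 the domains overlapped in MUT, and in WT p1 overlapped p2, with pM above both.

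The D11 against D5 difference of Dll1 was 2.65 ± 0.53 (SE, limma, adjusted p = 1.56e-04) in MUT p1 and 0.91 ± 0.53 (SE, limma, adjusted p = 0.214) in WT p1, where it did not pass. The MUT p1 value was 3.46 without MUT D11 p1 replicate 2 and 1.84 (limma, adjusted p = 0.0434) without MUT D11 p1 replicate 3. Between domains over all days, WT p2 stood above WT p1 by 1.00 ± 0.25 (SE, limma, adjusted p = 0.0229). By day this difference was 1.95 at D5, 1.23 at D7, 0.56 at D9 and 0.25 at D11. The call ended without any 1 of 7 libraries (WT D11 p1 replicate 2, WT D11 p2 replicates 2 and 3, WT D5 p1 replicate 2, WT D7 p1 replicate 3, WT D7 p2 replicate 2 and WT D9 p1 replicate 2), with values of 0.87 to 1.01 and an adjusted p of up to 0.0679, and with no filter on low values (adjusted p = 0.0535).

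Between the domains, averaged over the days, 3 of the 10 members differed between WT p2 and WT p1 (1.83% of all genes), with Dll1 and Dll4 higher and Jag1 lower in p2. In MUT, Dll4 was higher and Jag1 lower in p2 than in p1 (2 of 10, against 0.598%), and Notch1 was higher in pM than in p2 (1 of 10, against 3.26%). Between WT pM and WT p2, limma called 0 members (2.46% of all genes), 4 (Dll3, Dll4, Hey1 and Notch1) had an unadjusted p under 0.05, and edgeR and DESeq2 called 0 each. The differences p2 against p1 and pM against p2 share the p2 libraries.

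Dll4, a ligand of the p2 domain's interneuron precursors, was the ligand that set p2 above p1 most. In MUT p2 it was at 71.1, 168 and 194 at D5, 416, 391 and 213 at D7, 326 at D9, and 365 and 497 at D11. In MUT p1 it was at 4.07, 27.7 and 1.67 at D5, 109, 112 and 102 at D7, 41.9 and 31.2 at D9, and 185 and 174 at D11. The MUT p2 libraries lay above those of p1 on each day without overlap. WT p2 held 185, 166 and 152 at D5, 551, 602 and 192 at D7, 348, 372 and 623 at D9, and 510.2 and 309 at D11, while WT p1 held 21.3, 18.2 and 6.85 at D5, 105, 34.3 and 4.62 at D7, 38.3, 2.82 and 67.5 at D9, and 46.4 and 92.3 at D11. In WT, too, every p2 library lay above every p1 library of its day. The difference p2 against p1 was 2.54 ± 0.54 (SE, limma, adjusted p = 0.00759) in MUT and 3.56 ± 0.47 (SE, limma, adjusted p = 1.18e-06) in WT, on 4 of 4 days in each.

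At D9 in NFIAn alone, p2 against p1 in WT called 2 of 10 members (0.751% of all genes), Dll4 at 4.32 ± 0.89 (limma, adjusted p = 0.00487) and Jag1. The Dll4 call ended without WT D9 p1 replicate 2, whose value was the lowest of its group (3.06, adjusted p = 0.161), and its value was 5.14 without replicate 3. The Jag1 value there, -4.13, was -4.72 without WT D9 p2 replicate 1. On the other WT days p2 against p1 called 1 member at D5 (0.356% of all genes), 1 at D7 (0.115%) and 1 at D11 (0.598%). In MUT it called 2 members at D5 (0.439%) and 0 at D7 (0.0509%), D9 (0.121%) and D11 (0.134%).

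In pM, Dll4 was highest at D5 and low at D7 and D9. MUT pM held 558, 526 and 453 at D5, 95.7, 126 and 31.2 at D7, 33.1 and 51.3 at D9, and 345 and 435 at D11, and WT pM held 522 and 441 at D5, 169.6, 181 and 7.68 at D7, 45.1 and 24.0 at D9, and 171 and 353 at D11. The D7 and D9 libraries of pM lay below those of D5 in both genotypes. The log2 difference of pM minus p2 in MUT was 1.94 at D5, -2.16 at D7, -2.96 at D9 and -0.14 at D11. In WT it was 1.51, -2.63, -3.67 and -0.69 on the same days. For pM against p2 on single days, limma called 2 members at WT D5 (0.242% of all genes) and 2 at WT D9 (1.41%). It called 1 at MUT D5 (0.605%) and 0 on the other days of either genotype. The members behind these counts are not named here. The test of whether the pM against p2 difference varied over days called Dll3 and Hes6 in MUT (0.395% of all genes) and Hes6 in WT (0.267%), not Dll4 (limma, adjusted p = 0.347 in MUT and 0.302 in WT). Over time, Dll4 at D11 exceeded D5 by 4.63 ± 1.00 (SE, limma, adjusted p = 3.96e-04) in MUT p1 and by 1.97 ± 0.58 averaged over the MUT domains (adjusted p = 0.00424). The MUT p1 value was 5.62 without MUT D5 p1 replicate 2 and 3.91 without MUT D5 p1 replicate 3. In WT p1 the value was 2.15 ± 1.00 (adjusted p = 0.106), which passed without the 18 libraries of high total (2.15, adjusted p = 0.00677).

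Jag1, the ligand that alternates with Dll1 along the ventral spinal cord and is a p1 ligand there, parted the domains after D5. MUT p2 held 594, 851 and 521 at D5, 681, 324 and 204 at D7, 471 at D9, and 695 and 1594 at D11, and MUT p1 held 444, 631 and 603 at D5, 1328, 897 and 823 at D7, 2732 and 1938 at D9, and 2021 and 2473 at D11. From D7 to D11 the MUT p2 libraries lay below those of p1. The MUT difference p2 against p1 was -1.16 ± 0.29 (SE, limma, adjusted p = 0.0379). It rested on many libraries: the call ended without any 1 of 13 of 19 (MUT D11 p1 replicates 2 and 3, MUT D11 p2 replicate 2, MUT D5 p1 replicates 2 and 3, MUT D5 p2 replicates 1 and 3, MUT D7 p1 replicate 1, MUT D7 p2 replicates 2 and 3, MUT D9 p1 replicates 1 and 3 and MUT D9 p2 replicate 3), with values of -1.22 to -0.78 and an adjusted p of up to 0.434. It also ended with no filter (adjusted p = 0.0640), with TMM scaling (0.0609), with edgeR (0.0800) and without the 18 libraries of high total (-0.70, adjusted p = 0.126).

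The WT domains parted after D5 as well. WT p2 held 587, 684 and 629 at D5, 287, 313 and 141 at D7, 493, 129.8 and 159 at D9 in NFIAn and 889 and 726 at D11. WT p1 held 414, 874 and 557 at D5, 1419, 1354 and 893 at D7, 4327, 3677 and 3500.2 at D9, and 4380.4 and 6061 at D11. The groups overlapped at D5, and from D7 on every p1 library lay above every p2 library. Averaged over days, the p2 minus p1 difference was -2.26 ± 0.25 (SE, limma, adjusted p = 1.65e-08), with 0.11 at D5, -2.36 at D7, -4.13 ± 0.48 at D9 (adjusted p = 1.09e-07) and -2.68 at D11. The variation of this difference over days passed its own test (limma, adjusted p = 0.00181), and Jag1 was the 1 member of 10 to do so, against 0.261% of all genes.

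Jag1 in pM was at 661, 708 and 668 at D5, 447, 300.3 and 89.2 at D7, 337 and 189 at D9, and 312 and 469.7 at D11 in MUT, and at 777 and 597 at D5, 378, 269 and 109 at D7, 306 and 157 at D9 in NFIAn and 377 and 412 at D11 in WT. In both genotypes all later libraries of pM in the NFIAn gate lay below those of D5, as did WT D11. Over time Jag1 at D11 exceeded D5 by 2.01 ± 0.53 (SE, limma, adjusted p = 0.00369) in MUT p1 and by 3.13 ± 0.53 (SE, limma, adjusted p = 9.23e-06) in WT p1. It was at 0.35 ± 0.53 in WT p2 and -0.79 ± 0.58 in WT pM, neither of which passed. The test of a difference among the WT domains in this change called 2 of 10 members (0.891% of all genes), Hes6 and Jag1, and the Jag1 call (limma, adjusted p = 0.00544) ended without WT D11 p1 replicate 3 (0.0649).

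**Figure D2:**
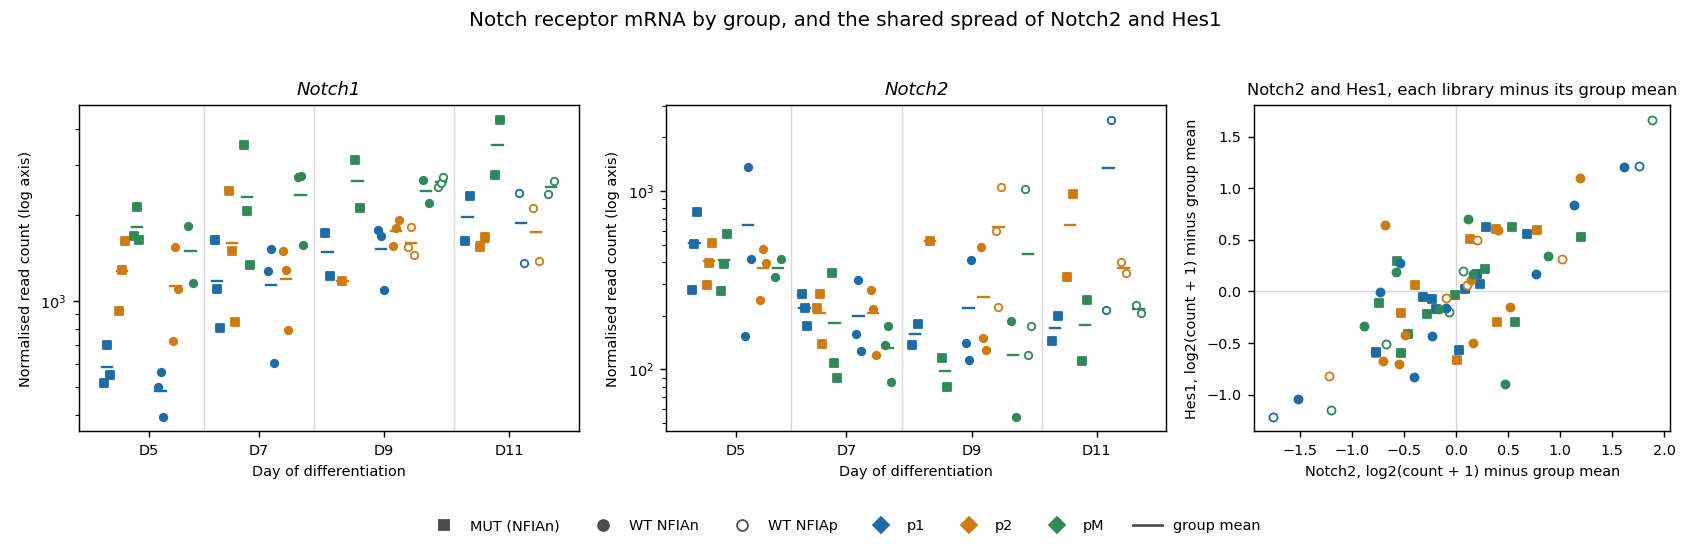
Normalised read counts (log axis) of the receptor genes Notch1 and Notch2 in each library against the day of differentiation, with symbols, colours and bars as for the ligands. Notch1 lies highest in pM and Notch2 spreads widely within groups.

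Notch1, the main receptor of neural progenitors, was highest in pM and rose in p1. MUT pM held 1686, 2138 and 1643 at D5, 3539, 2072 and 1344 at D7, 3135 and 2126 at D9, and 2768 and 4308 at D11, and MUT p2 held 927, 1282 and 1621 at D5, 2432, 1502 and 847 at D7, 1177 at D9, and 1553 and 1675 at D11. The pM libraries lay above those of p2 without overlap at D5, D9 and D11, and the 2 domains overlapped at D7. The MUT difference pM against p2 was 0.83 ± 0.21 (SE, limma, adjusted p = 0.0115). The call ended without MUT D9 p2 replicate 3, the lone library of its group (0.73, limma, adjusted p = 0.0734). That fit had no D9 part, so 0.73 is a mean over D5, D7 and D11 only. The call also ended with only the compared groups in the fit (adjusted p = 0.0700). WT pM held 1839 and 1155 at D5, 2726, 2753 and 1567 at D7, 2649 and 2214 at D9, and 2369.9 and 2646 at D11, and WT p2 held 725, 1550.2 and 1104 at D5, 1495, 1288 and 794 at D7, 1565, 1798 and 1923 at D9, and 2122 and 1379 at D11, a difference of 0.61 ± 0.19 (SE, limma, adjusted p = 0.0854), which passed without WT D7 pM replicate 3 (0.68, adjusted p = 0.0495). This WT difference also passed with replicate number as a block, over the whole series (0.64, limma, adjusted p = 0.0253) and within day (0.60, 0.00377).

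In p1, Notch1 was at 516, 701 and 551 at D5, 1635, 1100.5 and 804 at D7, 1739 and 1224 at D9, and 1622 and 2337 at D11 in MUT, and at 498, 563 and 393 at D5, 1278, 1521 and 605 at D7, 1770.0, 1694 and 1089.6 at D9, and 2403 and 1359 at D11 in WT. Every D7 to D11 library of p1 lay above every D5 library in both genotypes. D11 exceeded D5 by 1.74 ± 0.38 (SE, limma, adjusted p = 5.54e-04) in MUT p1, 1.01 ± 0.22 over the MUT domains (adjusted p = 1.74e-04) and 1.91 ± 0.38 in WT p1 (adjusted p = 1.31e-04). The WT step at D7 against D5 was 0.63 ± 0.21 (adjusted p = 0.0259), and the call ended with replicate number as a block within day (0.65, limma, adjusted p = 0.0514). That call ended without any 1 of 6 libraries (WT D5 p1 replicate 3, WT D5 p2 replicate 1, WT D5 pM replicate 3, WT D7 p1 replicates 1 and 2 and WT D7 p2 replicate 1, values of 0.51 to 0.58, adjusted p up to 0.122), with TMM scaling (0.0560) and with only the compared groups (0.0888).

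Notch2, the other receptor, was low per kb and varied most within groups apart from Dll4. In MUT it was at 274 to 762 at D5, 89.2 to 346 at D7, 79.2 to 524 at D9 and 111 to 960.2 at D11. In WT it was at 154 to 1361 at D5, 84.5 to 316 at D7, 54.3 to 1054 at D9 over both gates and 207 to 2494 at D11. Single libraries stood far above their group, such as WT D11 p1 with 216 and 2494 and WT D9 pM NFIAp with 1030.1, 121 and 174. The WT step at D7 against D5 was -1.22 ± 0.43 (SE, limma, adjusted p = 0.0381), and the call ended with replicate number as a block within day (-1.14, adjusted p = 0.169). It ended without any 1 of 9 libraries (WT D5 p1 replicate 2, WT D5 p2 replicates 2 and 3, WT D5 pM replicates 2 and 3, WT D7 p1 replicates 1 and 3, WT D7 p2 replicate 3 and WT D7 pM replicate 3, values of -1.28 to -0.96, adjusted p up to 0.119), with no filter (0.0756) and without the 18 libraries of high total (-0.92, adjusted p = 0.145).

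**Figure D3:**
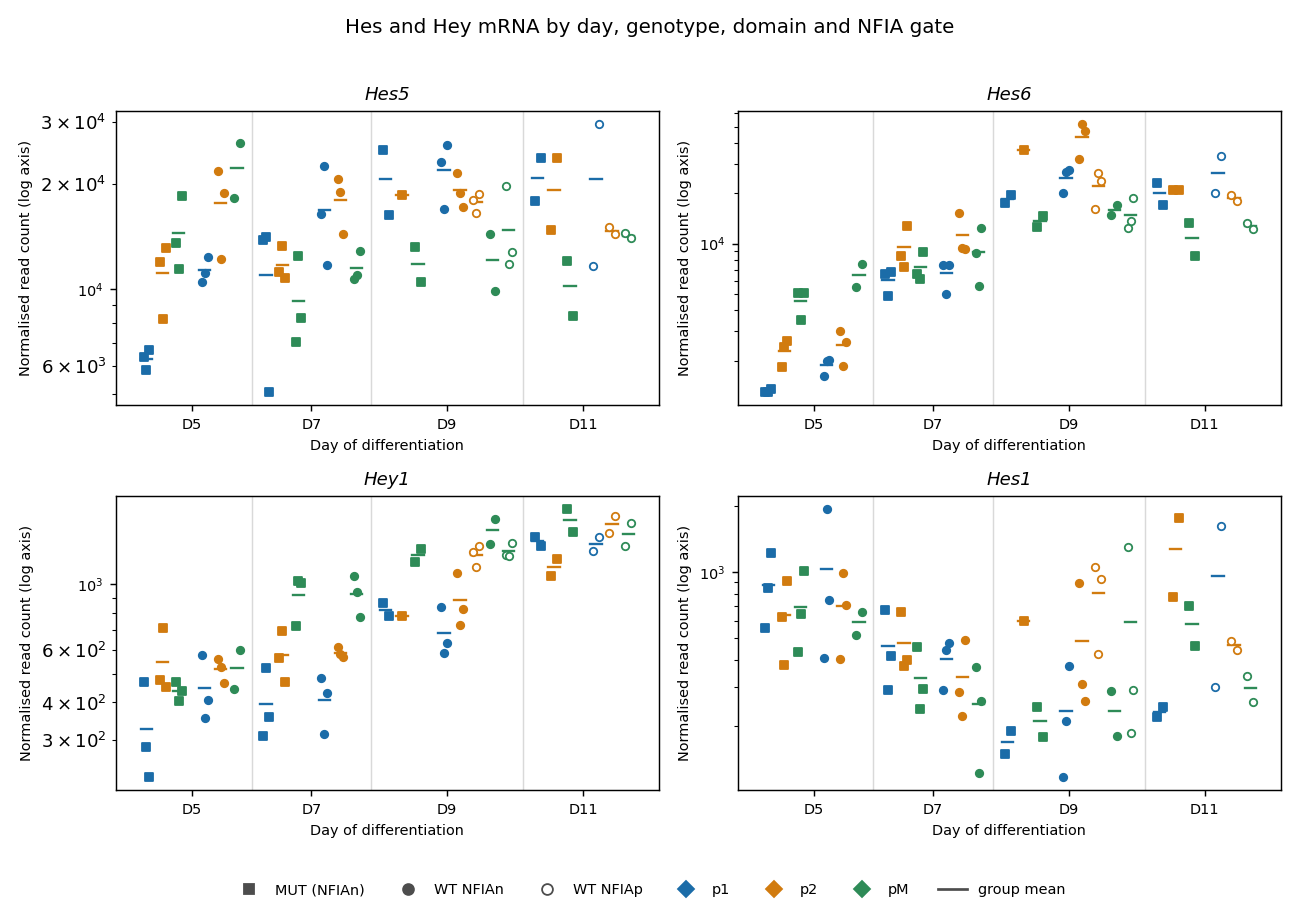
Normalised read counts (log axis) of Hes5, Hes6, Hey1 and Hes1 in each library against the day of differentiation, with symbols, colours and bars as for the ligands. Hes6 climbs from D5 to D9, Hey1 is higher at D11 than at D5 in every domain, and MUT Hes5 in p1 at D5 lies below WT.

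Hes6, the family member of differentiating cells whose upstream window is printed above, rose in all 3 domains. In MUT p1 it was at 1302, 1305 and 1354 at D5, 6605, 4885 and 6804 at D7, 17556 and 19586 at D9, and 23038 and 16936 at D11. In MUT p2 it was at 1844, 2413 and 2612 at D5, 8452, 7273 and 12751 at D7, 36097 at D9, and 21043 and 20773 at D11. In MUT pM it was at 5083, 3497 and 5096 at D5, 6544, 6148 and 8943 at D7, 12629.8 and 14638 at D9, and 13318 and 8383 at D11. Each D9 library and each D11 library lay above all D5 libraries of its domain in MUT. The difference of D11 against D5 was 3.90 ± 0.30 (SE, limma, adjusted p = 3.57e-14) in p1, 3.21 ± 0.30 in p2 (adjusted p = 1.68e-11) and 1.23 ± 0.30 in pM (adjusted p = 0.00191), and the pM call ended without MUT D11 pM replicate 2 (0.90, adjusted p = 0.112).

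WT p1 held 1624, 1983 and 2025 at D5, 7479.6, 4987 and 7443 at D7, 20042, 26964 and 27356 at D9, and 19990.4 and 33210.4 at D11 of Hes6. WT p2 held 3014, 1848 and 2578 at D5, 15298, 9448 and 9258 at D7, 32030.2, 51625 and 47219.8 at D9 in NFIAn and 19514 and 18054 at D11. WT pM held 5474 and 7575 at D5, 8807, 5577 and 12451 at D7, 14789 and 17113 at D9 in NFIAn and 13309.6 and 12259.7 at D11. Among these values p2 was highest at D9 in NFIAn, and pM began highest and ended lowest. In NFIAp, WT D9 p2 was at 16131 to 26287, which overlapped D11. Day and gate change together between D9 in NFIAn and D11. Within NFIAp, D11 against D9 over p2 and pM was -0.20 ± 0.21 (SE, limma, adjusted p = 0.617). D11 exceeded D5 by 3.79 ± 0.30 (SE, limma, adjusted p = 1.12e-13) in p1, 2.95 ± 0.30 in p2 (adjusted p = 1.61e-10) and 0.99 ± 0.33 in pM (adjusted p = 0.0277). These are fold changes of 13.8, 7.72 and 1.98 on the log2(count + 1) scale, and they differed among the WT domains (limma, adjusted p = 0.000283). The pM call ended without WT D11 pM replicate 2 (0.93, adjusted p = 0.144), without replicate 3 (1.05, 0.0805), without WT D5 pM replicate 2 (0.75, 0.259) and with only the compared groups in the fit (0.0886).

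Between pM and p2, Hes6 changed order with time. The log2 difference of pM minus p2 in MUT was 0.99 at D5, -0.37 at D7, -1.41 at D9 and -0.98 at D11. In WT it was 1.41, -0.38, -1.43 and -0.56 on those days. This variation over days passed its test in MUT (limma, adjusted p = 0.00967, 0.0538 without MUT D5 p2 replicate 1) and in WT (8.41e-04). For Dll3 the MUT difference was 2.99, 0.64, -2.42 and -2.54, which also varied over days (adjusted p = 0.00723). The WT steps of Hes6 over all domains were 1.46 ± 0.16 for D7 against D5 (adjusted p = 1.67e-09) and 1.59 ± 0.16 for D9 against D7 (adjusted p = 4.07e-10).

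Hey1, a Notch target gene of the Hey family, rose in every domain. In MUT it was at 225 to 713 at D5 and 307 to 1024 at D7 over the 3 domains, then at 778 to 1306 at D9 and 1067 to 1784 at D11. In WT it was at 356 to 600.4 at D5, 312 to 1061 at D7, 586 to 1659 at D9 and 1286 to 1689 at D11. No D11 library of either genotype overlapped a D5 library. At D11 the single values were 1443 and 1339 in MUT p1, 1067 and 1216 in MUT p2, 1784 and 1494 in MUT pM, 1286 and 1439 in WT p1, 1486 and 1689 in WT p2 and 1341 and 1599 in WT pM. D11 exceeded D5 by 2.16 ± 0.25 (SE, limma, adjusted p = 2.82e-09) in MUT p1, 1.09 ± 0.25 in MUT p2 (adjusted p = 8.28e-04) and 1.90 ± 0.25 in MUT pM (adjusted p = 8.31e-08). The WT differences were 1.63 ± 0.25 in p1 (adjusted p = 1.37e-06), 1.62 ± 0.25 in p2 (adjusted p = 1.86e-06) and 1.5 ± 0.27 in pM (adjusted p = 4.46e-05). The step of WT that passed was D9 against D7, at 0.68 ± 0.13 (adjusted p = 2.96e-04).

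Hes5, the main Notch target of neural progenitors, was high on every day. In MUT p1 it was at 6373, 5849 and 6677 at D5, 13756, 14096 and 5075 at D7, 24913 and 16304 at D9, and 17889 and 23597 at D11. In MUT p2 it was at 11929.9, 8184 and 13110.3 at D5, 11167, 13246 and 10762 at D7, 18609.6 at D9, and 14731 and 23626 at D11, and in MUT pM at 13528, 11428 and 18399 at D5, 7031, 12394 and 8271 at D7, 13160.2 and 10471 at D9, and 12006 and 8346 at D11. In p1 the D9 and D11 libraries of MUT lay above those of D5, while in pM the days overlapped. D11 differed from D5 by 1.71 ± 0.36 (SE, limma, adjusted p = 2.56e-04) in MUT p1, by 0.78 ± 0.36 in MUT p2 (adjusted p = 0.102) and by -0.50 ± 0.36 in MUT pM (adjusted p = 0.348). WT p1 held 10483, 11069.6 and 12327 at D5, 16348, 22392 and 11724 at D7, 22993, 16948 and 25839 at D9, and 11631 and 29545 at D11. In WT the differences were 0.72 ± 0.36 in p1, -0.22 ± 0.36 in p2 and -0.62 ± 0.39 in pM, none of which passed. The WT p1 difference passed without WT D11 p1 replicate 2 (1.39, limma, adjusted p = 0.0154) and with DESeq2 (0.87, adjusted p = 0.0380).

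Hes1, a Notch target that is also active outside Notch signalling, was lower late in MUT p1. There it was at 558, 852 and 1229 at D5, 671, 292 and 417 at D7, 149 and 189 at D9, and 219 and 244 at D11, and in WT p1 at 407, 1938 and 749 at D5, 292, 443 and 477 at D7, 118, 210.0 and 375 at D9, and 302 and 1629 at D11. All MUT D11 libraries of p1 lay below those of D5, while the WT D11 libraries lay inside or below the range of D5. The MUT p1 difference of D11 against D5 was -1.85 ± 0.65 (SE, limma, adjusted p = 0.0306), and the call ended without any 1 of MUT D11 p1 replicates 2 and 3 and MUT D5 p1 replicates 2 and 3 (adjusted p up to 0.153). The WT step at D7 against D5 was -1.17 ± 0.35 (adjusted p = 0.0130), with 123 to 492 in WT D7 libraries and 405 to 1938 in WT D5 libraries, ranges that overlap. That call ended with replicate number as a block within day (-1.10, limma, adjusted p = 0.113).

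**Figure D4:**
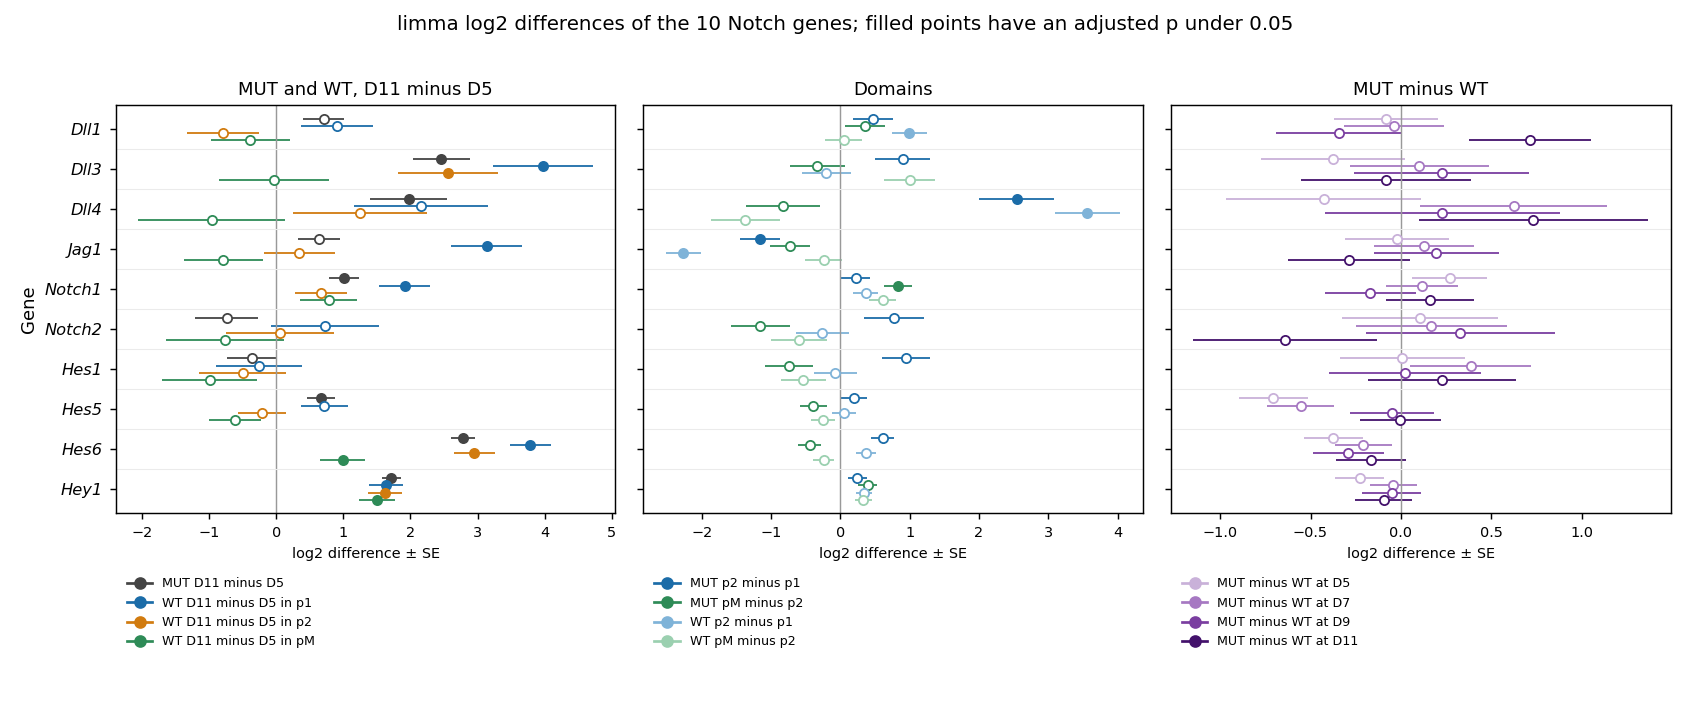
limma log2 differences ± SE of the 10 members for D11 against D5 (left), between domains (middle) and MUT against WT (right), with filled points where the adjusted p is under 0.05. Hes6 and Hey1 are filled in each D11 against D5 comparison drawn, and no point is filled in the right panel.

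The NFIA gate could be compared in WT p2 and pM at D9, where NFIAp and NFIAn libraries share a day. limma called 0 of the 10 members (0.204% of all genes), 3 (Hes6, Jag1 and Notch2) had an unadjusted p under 0.05, and edgeR and DESeq2 called 0 each. With replicate number as a block within day, limma called these 3: Jag1 (1.27, adjusted p = 0.00147), Notch2 (1.53, 0.0469) and Hes6 (-0.58, 0.0377). Jag1 in p2 was at 929, 389 and 706 in NFIAp and 493, 129.8 and 159 in NFIAn. In pM it was at 750.5, 239.8 and 316 in NFIAp and 306 and 157 in NFIAn. The gates overlapped in both domains, and the difference was 1.18 ± 0.36 (SE, limma, adjusted p = 0.193). It passed without WT D9 p2 NFIAn replicate 1 (1.47, limma, adjusted p = 0.0371). Hes6 in p2 was at 16131, 26287 and 23694 in NFIAp and 32030.2, 51625 and 47219.8 in NFIAn, without overlap, and in pM at 12332, 13602 and 18639.9 in NFIAp and 14789 and 17113 in NFIAn, with overlap. The difference over both domains was -0.55 ± 0.20 (SE, limma, adjusted p = 0.344).

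Between the genotypes no member passed the main test on any day. limma called 0 of 10 at D5 (0.458% of all genes), at D7 (2.03%), at D9 (0.700%) and at D11 (4.14%). At an unadjusted p under 0.05 there were 2 at D5 (Hes5 and Hes6), 1 at D7 (Hes5), 0 at D9 and 1 at D11 (Dll1). edgeR called 0 on each day, and DESeq2 called 1 (Hes5) at D5 and 0 on the other days. A limma fit with replicate number as a block within day called Hes5 at D5 (adjusted p = 0.00411) and D7 (0.0107) and Dll1 at D11 (0.0137). For the difference between MUT and WT in the D11 against D5 change, limma, edgeR and DESeq2 each called 0 members, with 1 (Hes5) at an unadjusted p under 0.05 (0.770% of all genes called by limma). At D11 MUT was NFIAn and WT NFIAp, so genotype and gate cannot be told apart there.

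Hes5 came nearest to a genotype difference. At D5 it was at 6373, 5849 and 6677 in MUT p1 and at 10483, 11069.6 and 12327 in WT p1. In p2 it was at 11929.9, 8184 and 13110.3 in MUT and 21775, 12149 and 18828 in WT. In pM it was at 13528, 11428 and 18399 in MUT and 18228 and 26092 in WT. MUT lay below WT without overlap in p1, and the genotypes overlapped in p2 and pM. The difference averaged over domains was -0.71 ± 0.19 (SE, limma, adjusted p = 0.0842), with -0.84 in p1, -0.65 in p2 and -0.62 in pM. It passed with DESeq2 (-0.71, adjusted p = 0.0171), with only the compared groups in the fit (0.0246), without WT D5 p2 replicate 2 (-0.79, 0.0425) and without the 18 libraries of high total (0.0333), none of which is from D5. With replicate number as a block it passed too, over the whole series (-0.73, limma, adjusted p = 0.0489) and within day (-0.71, 0.00411).

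At D7 Hes5 was at 13756, 14096 and 5075 in MUT p1 and 16348, 22392 and 11724 in WT p1, at 11167, 13246 and 10762 in MUT p2 and 20558, 18860.2 and 14335 in WT p2, and at 7031, 12394 and 8271 in MUT pM and 10700.1, 10947 and 12823 in WT pM. Only p2 was free of overlap on that day. The difference was -0.55 ± 0.18 (SE, limma, adjusted p = 0.111), and by D9 and D11 it was -0.05 ± 0.23 and -0.00 ± 0.23. For the other members the MUT minus WT log2 differences ran from -0.64 (Notch2 at D11) to 0.73 (Dll4 at D11) over the 4 days. Dll1 at D11 was at 1988 and 6143 in MUT p1 and 1035 and 1804 in WT p1, a log2 difference over domains of 0.71 ± 0.34 (SE, limma, adjusted p = 0.254).

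Of 57 other genes of the pathway (further ligands, cleavage and glycosylation enzymes, modulators, nuclear partners and targets), 56 were tested. Averaged over the MUT domains, 17 were higher and 9 lower at D11 than at D5. In WT at D11 against D5, 11 were higher and 3 lower in p1, 10 higher and 4 lower in p2, and 4 higher and 2 lower in pM. Averaged over the WT domains compared, 10 were higher and 3 lower at D7 than at D5, 8 higher and 4 lower at D9 than at D7, and 6 higher and 1 lower at D11 than at D9. Of all genes, 46.0% were called for MUT D11 against D5, and 27.7%, 25.8% and 20.4% for WT p1, p2 and pM. For the WT steps in that order the shares were 19.6%, 14.4% and 10.1%. The pathway counts for D11 against D5 are near or below these shares, and those of the steps lie slightly above. Dner, a Delta-like ligand of neurons, averaged 763 at D11 and 4.48 at D5 in WT p1, a difference of 7.13 ± 0.97 (limma, adjusted p = 1.30e-07). Bhlhe40, a repressor related to the Hes family, rose on the log2 scale by 4.11 ± 0.97 in WT p1, 3.95 ± 0.97 in WT p2 and 5.30 ± 1.07 in WT pM (adjusted p = 0.00103, 0.00176 and 1.93e-04). Tle4, a Groucho corepressor that works with Hes proteins, changed by -1.76 ± 0.28, -1.39 ± 0.28 and -1.92 ± 0.31 in the same domains (adjusted p = 3.97e-06, 1.82e-04 and 6.00e-06).

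Between domains, of the 3 fringe genes, whose products add sugars to Notch and alter its choice of ligand, Mfng was called in 4 of the 4 comparisons, Lfng in 2 and Rfng in 0. Mfng was higher in p2 than in p1 by 1.12 ± 0.18 in MUT (limma, adjusted p = 1.20e-04) and by 1.32 ± 0.16 in WT (adjusted p = 1.10e-07), and higher in pM than in p2 by 0.98 ± 0.18 in MUT (adjusted p = 3.18e-04) and by 0.98 ± 0.17 in WT (adjusted p = 1.11e-04). Lfng was higher in p2 than in p1 by 1.13 ± 0.24 in WT (adjusted p = 0.00432), and in MUT it was higher in pM than in p2 by 1.15 ± 0.28 (adjusted p = 0.00822). Hes2, another Hes gene, was highest in p2. It averaged 734 in WT p2 and 9.20 in WT p1, a difference of 5.70 ± 0.64 (adjusted p = 1.65e-08), and pM against p2 was -5.20 ± 0.67 (adjusted p = 3.37e-07). In all, 3 pathway genes were higher and 2 lower in WT p2 than in p1, 2 higher and 1 lower in WT pM than in p2, 2 higher in MUT p2 than in p1, and 4 higher and 3 lower in MUT pM than in p2. Of all genes, 1.83%, 2.46%, 0.598% and 3.26% were called in these comparisons, in that order. For MUT against WT, Tle4 was called at D7, higher in MUT (2.03% of all genes called), and Dab1 at D11, lower in MUT (4.14%).

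The members' patterns over the 26 group means were compared with those of 10665 genes by Pearson's r of the log2 values, as a description. Hey1 was most like Spon1 (0.954), Tifa (0.943) and Acadm (0.931). Hes6 was most like Rnd2 (0.948), Fam118b (0.940) and Dbndd1 (0.937), Dll3 like Nrarp (0.913), Rhbdl3 (0.907) and Hes6 (0.889), and Notch1 like Glra1 (0.942), Mycl (0.902) and Srgap3 (0.902). For Dll4 the nearest were Rassf4 (0.816), Kcnip2 (0.808) and Foxn4 (0.778), for Jag1 Frzb (0.870), Rcn1 (0.838) and Tcf12 (0.802), for Hes5 Lrrn3 (0.787), Magi1 (0.784) and Cdkn1c (0.774) and for Dll1 Pcdh18 (0.774), Ncstn (0.770) and Tet3 (0.763). Hes1 and Notch2 were each among the other's nearest, with B4galt1 (0.898), Zc3h14 (0.867) and Hes1 (0.859) for Notch2 and Notch2 (0.859), B4galt1 (0.841) and Ap2a2 (0.826) for Hes1. Within groups, over the 65 libraries with a partner in their group, the deviations from the group means had r = 0.770 for Dll3 and Hes1 (0.732 without the 2 libraries farthest from the median), 0.767 for Notch2 and Hes1 (0.714), 0.757 for Dll3 and Notch2 (0.707) and 0.680 for Jag1 and Notch2 (0.667). The groups share days and domains, and libraries of 1 group share depth effects, so these correlations carry no test.

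All 10 members are protein-coding genes on GRCm38 in GENCODE M21. The ligands lie at chr17:15367354-15376872 (minus strand) for Dll1, chr7:28293553-28302238 (minus strand) for Dll3, chr2:119325784-119335962 (plus strand) for Dll4 and chr2:137081456-137116644 (minus strand) for Jag1. The receptors lie at chr2:26457903-26516663 (minus strand) for Notch1 and chr3:98013527-98150361 (plus strand) for Notch2. The transcription factor genes lie at chr16:30064384-30067796 (plus strand) for Hes1, chr4:154960923-154962371 (plus strand) for Hes5, chr1:91411483-91414038 (minus strand) for Hes6 and chr3:8663359-8667256 (minus strand) for Hey1. Exons of another gene overlap those of Dll1 (867 bases), Dll4 (214), Notch1 (1068 and 414) and Hes5 (433) on the opposite strand and those of Notch2 (541) on the same strand. Whether reads were counted by strand is not given in the sources used here, so reads of these 5 genes and their partners cannot be told apart in the overlaps.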

How the data were processed

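The authors deposited signal values in the form of normalised read counts, each a read count divided by a DESeq2 size factor, after mapping to mm10, per the submitters' processing notes. The versions, the aligner and the strand setting are not given in the sources used here. Dividing each library by the value of its single read gave whole numbers within 0.01 for 100% of values, and those recovered counts went to edgeR 4.0.16 and DESeq2 1.42.0 as alternatives. edgeR called 4007, 3707 and 2802 genes for D11 minus D5 in WT p1, p2 and pM, against 4360, 4051 and 3205 with limma. The main test was limma 3.58.1 (R 4.3.3) with an intensity trend of the variance, run on log2(normalised count + 1), 1 mean for each of 26 groups over 66 libraries, on the 15714 genes with at least 10 in at least 2 libraries, two-sided, with Benjamini-Hochberg adjustment over all of them and a threshold of 0.05. A log2 difference on this scale understates the change of low genes. Differences over several domains or days are means of the differences within each. limma F tests asked whether such a difference varied among its parts. The 10 members, the pathway list of 57 genes and the marker lists were chosen with earlier results of these data known. The pathway genes named are a part of those that met a rule: up to 3 called genes per direction with the largest log2 difference and a mean of at least 50 in either group. Heyl, Jag2, Egfl7, Hes3, Pofut1, Dtx3, Numbl and Tle1 met it and are not described. Some comparisons of the named genes, such as Dner in WT p2 and pM, are also left out. Rfng, Tle4 at D7 and Dab1 are named beside that rule, chosen after their values were seen. The genes of like pattern are the 3 of highest r among those with a mean of at least 50. The limma fit was tested on simulated data for 5 of the comparisons. It recovered 15% (WT D11 minus D5 in p1) to 74% (WT p2 minus p1) of 2-fold changes, with 49% for the NFIA gate. Of 4-fold changes it recovered 69% to 97%. False calls made up 2.80% (NFIA gate) to 8.19% (MUT minus WT at D11) of all calls. A 2-fold change can hence be missed. The simulated libraries were drawn independently around 1 mean per gene, and only genes with a mean of at least 50 were changed. Spread shared by replicate number within a day (correlation 0.323 in the data) was not simulated. These rates hence describe the simulated libraries and may differ in the real ones. Exon lengths and positions are from GENCODE M21, upstream windows from RefSeq on GRCm38.p6.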

Additional observations from a re-analysis of the deposited data

Results flagged for a closer look

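Each result in this paragraph was singled out because a difference within 1 contrast varied between domains or between days in a limma F test of that variation, with a p adjusted over all 15714 genes. The D11 minus D5 change in MUT varied among p1, p2 and pM for Dll1 (adjusted p = 0.0298), Dll3 (0.00138), Hes5 (0.0338) and Hes6 (0.000182). The log2 changes of Dll3 were 3.77 in p1, 4.58 in p2 and -0.96 in pM, and those of Dll1 were 2.65, -0.14 and -0.39. The same change in WT varied among domains for Hes6 (0.000283) and Jag1 (0.00544). The pM minus p2 difference varied over days for Dll3 (0.00723) and Hes6 (0.00967) in MUT and for Hes6 (0.000841) in WT. The p2 minus p1 difference of WT varied over days for Jag1 (0.00181). Of these, the Dll3 and Hes6 calls in the MUT change, Dll3 in MUT pM minus p2, Hes6 in WT pM minus p2 and Jag1 in WT p2 minus p1 stayed under 0.05 with each of the 66 libraries left out in turn. The highest adjusted p they reached was 0.0472 (Hes6 in WT pM minus p2). The Jag1 and Hes6 tests that compare D11 of WT rest on NFIAp libraries there and NFIAn libraries on the other days.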

How the results depend on the processing

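The 32 calls of single members in the comparisons fixed at the start were repeated under 9 alternatives, and no call changed sign in any of them or with 1 library left out. Of these calls 23 were kept with each library of their comparison left out in turn, and 9 were lost in at least 1 case. DESeq2 kept 32 and added 7, pseudocount 8 kept 32 and added 1, TMM scaling kept 30 and added 1, edgeR kept 31 and added 1, no filter kept 29, a fit on only the compared groups kept 28 and added 5, and leaving out the 18 libraries of high total kept 29 and added 5. The number of members called moved in these cases, and the cause was not tested. With only the compared groups it was 5 in WT p2 and 1 in WT pM for D11 minus D5, 1 for WT D11 minus D9, 0 for MUT pM minus p2 and 1 for MUT minus WT at D5. Without the 18 libraries it was 3 for WT D7 minus D5, 1 for MUT p2 minus p1 and 1 for MUT minus WT at D5. It was 1 for MUT p2 minus p1 with no filter and with edgeR, 1 for WT D11 minus D9 with pseudocount 8 and with DESeq2, and 1 for MUT minus WT at D5 with DESeq2.

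With 1 library left out, the number of members called ran from 5 to 6 in WT p1, 2 to 3 in WT p2 and 1 to 2 in WT pM for D11 minus D5, from 1 to 3 for its difference among WT domains, from 2 to 6 for WT D7 minus D5, from 3 to 3 for WT D9 minus D7, from 0 to 1 for WT D11 minus D9, and from 6 to 8 for MUT D11 minus D5. It ran from 2 to 3 for WT p2 minus p1, 0 to 1 for WT pM minus p2, 1 to 2 for MUT p2 minus p1, 0 to 1 for MUT pM minus p2, 0 to 1 for the NFIA gate, and 0 to 1 for MUT minus WT at D5. At D7, D9 and D11 and for the change it stayed at 0. Without MUT D9 p2 replicate 3, or without the 18 libraries of high total, the group MUT D9 p2 is empty. The MUT differences between domains are then means over D5, D7 and D11 only, and MUT minus WT at D9 is a mean over p1 and pM only.

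Replicate numbers are not stated to mark shared cultures. Deviations from group means of libraries of 1 genotype, day and number had a median r of 0.168, over 0.1 in 56 of 74 pairs, against -0.0955 and 10 of 134 for different numbers of 1 genotype and day. Across genotypes of 1 day the same number gave 0.158, over 0.1 in 64 of 89. This is a hint from the data that the numbers mark something shared within a day. The rule for taking them as pairs asked for r over 0.1 in every pair, and the lowest was 0.00915 within a genotype and -0.00375 across genotypes. The blocked fits are hence given as alternatives to the main test. A replicate block over the whole series kept 32 calls and added 7, with 1 member called for WT D11 minus D9, 1 for WT pM minus p2 and 1 for MUT minus WT at D5. A replicate block within day (correlation 0.323) kept 27 and added 16, with 1 member called for WT D7 minus D5, 5 for WT p2 minus p1, 2 for WT pM minus p2, 5 for MUT pM minus p2, 3 for the NFIA gate (Jag1 at 1.27, limma, adjusted p = 0.00147, Notch2 at 1.53, 0.0469, and Hes6 at -0.58, 0.0377) and 1 each for MUT minus WT at D5, D7 and D11. The calls lost with the block within day were Dll3, Notch1, Notch2 and Hes1 for WT D7 minus D5 and Dll3 for WT D9 minus D7. The count of all genes called moved over these 9 alternatives too. For D11 minus D5 it was 5624 to 8263 in MUT (7233 as reported), and 2550 to 5546 in WT p1 (4360), 3707 to 5238 in WT p2 (4051) and 1617 to 4277 in WT pM (3205). It was 1629 to 3798 for WT D7 minus D5 (3073), 1077 to 2781 for D9 minus D7 (2261) and 701 to 2621 for D11 minus D9 (1593). It was 58 to 444 for MUT minus WT at D5 (72), 138 to 1387 at D7 (319), 17 to 474 at D9 (110), 129 to 2318 at D11 (650) and 87 to 481 for the change (121). Between domains it was 127 to 923 for WT p2 minus p1 (288), 224 to 847 for WT pM minus p2 (386), 80 to 341 for MUT p2 minus p1 (94) and 264 to 1484 for MUT pM minus p2 (512). It was 7 to 342 for the NFIA gate (32) and 90 to 384 for the difference among WT domains (140).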
